A study of Homo sapiens with 6 samples.

Results

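The matrix metalloproteinases (MMPs), the ADAMTS proteases and their tissue inhibitors (TIMPs) were followed in the established osteosarcoma cell line U2OS, in which siRNA was directed at H3.X and H3.Y, histone variants of primates. Members were the probe sets with exactly 1 gene symbol of the form MMP plus a number, ADAMTS plus a number, or TIMP1 to TIMP4. This gave 43 of the 18417 genes that have a probe set with a single symbol, on 45 of the 33297 probe sets of the array: 22 MMP genes on 23 probe sets, 17 ADAMTS genes on 17 and 4 TIMP genes on 5. Another probe set, shared by MMP23A and MMP23B, carried both symbols and was not counted. The 9 MMP genes that lie side by side on chromosome 11 were also taken as a group of their own.

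Cells were transfected 2 times with siRNA against H3.X together with H3.Y (hereafter the combined knockdown), against H3.Y alone, or against luciferase as the control, and RNA was taken 4 days after transfection. Each group had 2 arrays, all from the same line. The labels call them biological replicates but do not describe the cultures behind them, so that p-values here measure array-to-array spread. The labels do not say whether the combined knockdown used a mixture or a single siRNA.

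MMPs are zinc proteases, most of them secreted as inactive proenzymes that lose an inhibitory propeptide, and together they can cleave most proteins of the extracellular matrix. Collagenases cut fibrillar collagen, gelatinases cut denatured and basement membrane collagen, stromelysins have a broad range and also activate other proenzymes, and membrane-type MMPs act at the cell surface. ADAMTS proteases carry thrombospondin repeats and include the aggrecanases and the enzymes that trim procollagen. TIMPs bind the active sites of these proteases. In bone, osteoblasts and their progenitors make several of these enzymes, MMP13 and MMP14 among them, and many MMP promoters are known to respond to AP-1, a dimer of FOS and JUN family proteins.

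Promoter sequence upstream of the annotated transcription start was read from RefSeq (build GRCh38.p14), which held windows for 25 of the 43 genes. Each window held 250 bases upstream and 50 bases downstream of the start, and motifs were counted over the whole window. The 130 bases before the start are shown, on the strand of the gene, for the 3 chromosome 11 MMPs whose window held the AP-1 type motif TGANTCA and for TIMP3, whose transcript was higher in the combined knockdown. Capitals mark TGANTCA and the TATA motif TATAAA.
MMP10, chr11:102780629-102780758, minus strand: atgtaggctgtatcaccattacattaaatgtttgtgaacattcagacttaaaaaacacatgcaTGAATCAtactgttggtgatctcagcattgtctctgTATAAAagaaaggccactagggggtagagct
MMP7, chr11:102530748-102530877, minus strand: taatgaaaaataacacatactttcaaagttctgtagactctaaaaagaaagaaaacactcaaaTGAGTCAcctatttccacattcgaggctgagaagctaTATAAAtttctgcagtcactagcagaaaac
MMP20, chr11:102625333-102625462, minus strand: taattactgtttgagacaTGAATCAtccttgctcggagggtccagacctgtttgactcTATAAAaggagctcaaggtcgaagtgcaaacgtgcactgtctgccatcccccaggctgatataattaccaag
TIMP3, chr22:32801575-32801704, plus strand: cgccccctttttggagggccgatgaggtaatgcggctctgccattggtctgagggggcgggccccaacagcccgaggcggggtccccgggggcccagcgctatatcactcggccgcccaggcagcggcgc
The motif TGANTCA reads the same on both strands. In MMP10 and in MMP7 its first base lay 67 bases upstream of the start, ahead of a TATAAA that began 31 bases upstream in MMP10 and 30 in MMP7. In MMP20 the distances were 112 and 72 bases. Of the 5 cluster genes with a window, 3 held TGANTCA and 4 held TATAAA on the gene's strand, and over all 35116 windows 7.71% held TGANTCA and 7.33% held TATAAA. Among the other family members with a window, only ADAMTS12 held TGANTCA, 84 bases upstream. MMP1, MMP3, MMP12 and MMP13 had no window, so whether their promoters hold either motif was not read. GGAA or TTCC, the core that ETS factors bind, lay within 20 bases of TGANTCA in MMP7, as in 2.78% of all windows. TIMP3 held neither motif in its window. A match describes these letters and says nothing of binding.

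The chromosome 11 cluster is described first. In the RefSeq gene order it runs MMP7, MMP20, MMP27, MMP8, MMP10, MMP1, MMP3, MMP12 and MMP13, and these were the 9 protein-coding genes among the 16 annotated genes of the span. The knockdowns set MMP10, MMP1 and MMP3, which follow each other among those 9, apart from MMP13 at the end of the row. The 3 neighbours were lower in the combined knockdown than after H3.Y siRNA, by log2 -1.68, -4.40 and -1.22, while MMP13 was higher by 2.68. All 4 passed the test over all probe sets at an adjusted p under 0.05 (limma, adjusted p between 0.00345 and 0.0189), where 4.67% of all probe sets passed. In bulk RNA, fewer cells that make a transcript and less of it per cell cannot be told apart.

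**Figure D1:**
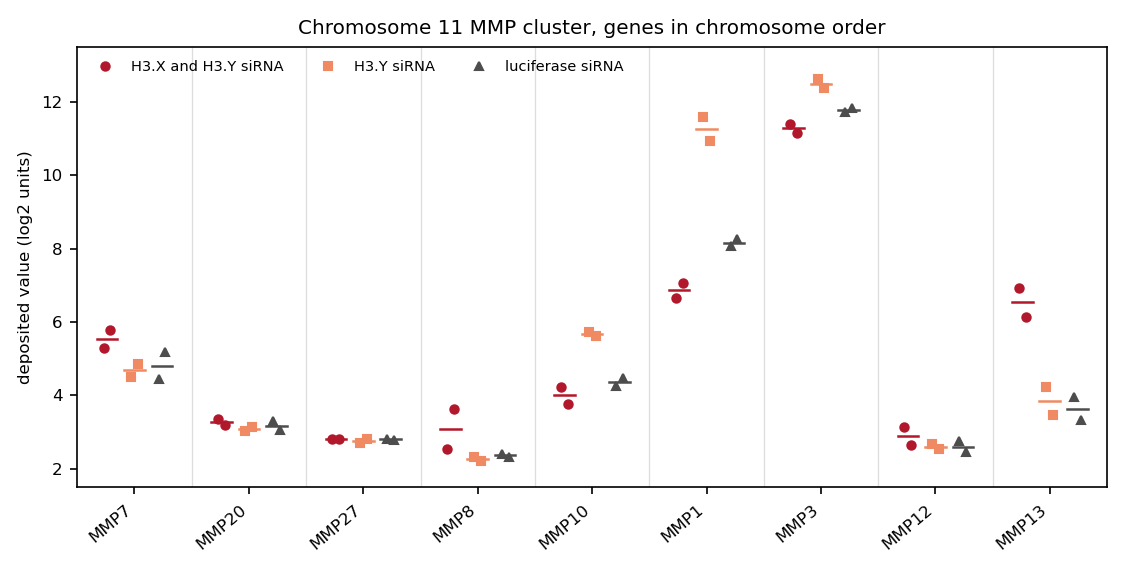
Deposited log2 values of the 9 MMP genes of the chromosome 11 cluster, in chromosome order along the x axis. Points are single arrays, 2 per group, and bars are group means. MMP1 lies near 6.87 in the combined knockdown, 11.27 after H3.Y siRNA and 8.17 with luciferase siRNA, and MMP13 is high in the combined knockdown alone.

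MMP1, the interstitial collagenase, stood at 6.67 and 7.06 log2 units in the combined knockdown, at 11.6 and 10.9 after H3.Y siRNA, and at 8.07 and 8.26 with luciferase siRNA. No array of any group reached into the range of another group. After H3.Y siRNA it rose 8.59-fold over luciferase (log2 3.10 ± 0.25 SE, n = 2 per group, limma adjusted p = 0.0261). In the combined knockdown its difference from luciferase was log2 -1.30 ± 0.25 (adjusted p = 0.0677), on the other side of the control. That difference passed in a fit of only the 4 arrays compared (0.0429), and ran from -1.50 to -1.10 with 1 array left out. The rise after H3.Y siRNA did not pass in the fit of only its own 4 arrays (limma adjusted p = 0.095). Between the knockdowns MMP1 was 21.2-fold lower in the combined knockdown than after H3.Y siRNA (log2 -4.40 ± 0.25, adjusted p = 0.00345).

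MMP10, stromelysin 2, gave 4.24 and 3.76 log2 units in the combined knockdown, 5.73 and 5.62 after H3.Y siRNA, and 4.27 and 4.48 with luciferase siRNA. Its H3.Y arrays lay above all others and its combined knockdown arrays below those of luciferase. It was 3.20-fold lower in the combined knockdown than after H3.Y siRNA (log2 -1.68 ± 0.19, limma adjusted p = 0.0116). Against luciferase it differed by 1.30 ± 0.19 after H3.Y siRNA (adjusted p = 0.0672) and by -0.38 ± 0.19 in the combined knockdown (adjusted p = 0.443). Fitted and adjusted over probe sets with 1 symbol only, MMP10 passed after H3.Y siRNA (limma adjusted p = 0.0102).

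MMP3, stromelysin 1, an activator of procollagenases, stood at 11.41 and 11.16 log2 units in the combined knockdown, at 12.62 and 12.39 after H3.Y siRNA, and at 11.72 and 11.85 with luciferase siRNA. The 3 groups did not overlap, in the order seen for MMP1. The combined knockdown was 2.33-fold lower than H3.Y siRNA (log2 -1.22 ± 0.16, limma adjusted p = 0.0163). Neither difference from luciferase passed over all probe sets, at 0.72 ± 0.16 after H3.Y siRNA (adjusted p = 0.138) and -0.50 ± 0.16 in the combined knockdown (adjusted p = 0.202). Fitted and adjusted over probe sets with 1 symbol only, the difference after H3.Y siRNA passed (limma adjusted p = 0.039). MMP3 and MMP10 are close relatives in sequence, and whether either probe set also reads the other transcript was not tested.

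MMP13, collagenase 3, the collagenase known for bone and for cartilage that turns to bone, gave 6.94 and 6.13 log2 units in the combined knockdown, 4.23 and 3.48 after H3.Y siRNA, and 3.95 and 3.33 with luciferase siRNA. The combined knockdown arrays lay above the other 4, which overlapped each other. It rose 7.44-fold over luciferase in the combined knockdown (log2 2.90 ± 0.37, limma adjusted p = 0.0255) and was 6.42-fold higher than after H3.Y siRNA (2.68 ± 0.37, adjusted p = 0.0189). After H3.Y siRNA it differed from luciferase by 0.21 ± 0.37 (adjusted p = 0.865). Of all probe sets, 25% had means below 3.33 log2 units, near the lowest MMP13 values, so these folds depend on the floor of the array.

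The other 5 genes of the cluster passed in 0 of the 3 comparisons (limma), with 0, 1 and 2 genes at an unadjusted p under 0.05 with H3.Y siRNA, in the combined knockdown and between both. MMP7, matrilysin, gave 5.28 and 5.77 log2 units in the combined knockdown, 4.51 and 4.86 after H3.Y siRNA, and 4.43 and 5.19 with luciferase siRNA. Its combined knockdown arrays lay above the rest, by 0.72 ± 0.30 over luciferase (limma adjusted p = 0.325) and 0.84 ± 0.30 over H3.Y siRNA (0.188). MMP8, the neutrophil collagenase, gave 2.54 and 3.63 in the combined knockdown, 2.32 and 2.21 after H3.Y siRNA, and 2.41 and 2.33 with luciferase siRNA, so that 1 array of the combined knockdown carried most of its difference of 0.71 ± 0.33. MMP12, the macrophage elastase, ran from 2.44 to 3.13 over the 6 arrays. MMP20, enamelysin of developing teeth, ran from 3.03 to 3.36, and MMP27 from 2.70 to 2.82. MMP8, MMP12, MMP20 and MMP27 had means among the lowest 25% of probe sets, where a change may not be visible.

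Counted over the cluster, 4 of 9 probe sets passed between the knockdowns, 1 higher and 3 lower in the combined knockdown, against 2.74% higher and 1.92% lower over all probe sets. Against luciferase 1 of 9 passed in the combined knockdown, MMP13, at a background of 1.84%, and 1 of 9 after H3.Y siRNA, MMP1, at 0.279%. The median difference over the cluster was log2 0.19 between the knockdowns, 0.11 for the combined knockdown against luciferase and 0.003 for H3.Y siRNA against luciferase, beside -0.03, 0.0009 and 0.02 over all probe sets. Since both comparisons with luciferase use the same 2 control arrays, their values are set side by side only.

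A list of 14 genes that flank the cluster without being MMPs had 13 measured genes on 14 probe sets. Against luciferase 0 passed in either knockdown (limma, 5 at an unadjusted p under 0.05 in the combined knockdown and 1 after H3.Y siRNA). Over all probe sets 15.3% and 13.9% stood at that unadjusted p. Between the knockdowns 8 of the 14 did, beside 19% of all probe sets (limma). There 1 was called higher and 1 lower, where 2.74% and 1.92% of all probe sets were. Between the knockdowns PDGFD, a platelet-derived growth factor beyond the MMP13 side, was higher in the combined knockdown (log2 1.40 ± 0.21, adjusted p = 0.0236). On the far MMP7 side, CFAP300, a cilium assembly gene, was lower (-0.90 ± 0.17, adjusted p = 0.042). Nearer to the cluster, TMEM123 differed by 0.20 ± 0.14 (adjusted p = 0.528), BIRC2 by -0.48 ± 0.17 (0.183) and DCUN1D5 by -0.36 ± 0.13 (0.2). The median over the 14 probe sets was -0.20 between the knockdowns, with 4 positive and 10 negative, where 45.6% of all probe sets were positive.

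The inhibitors form the second group. TIMP3, which binds the matrix and also inhibits aggrecanases, had 2 probe sets. The first gave 9.03 and 8.53 log2 units in the combined knockdown, 7.27 and 6.37 after H3.Y siRNA, and 6.73 and 6.45 with luciferase siRNA. The second gave 6.61 and 6.29 in the combined knockdown, 4.58 and 5.01 after H3.Y siRNA, and 4.68 and 4.48 with luciferase siRNA. On both, the combined knockdown arrays lay above the other 4 and the H3.Y arrays overlapped with those of luciferase. TIMP3 rose 4.56-fold on the first (log2 2.19 ± 0.32, limma adjusted p = 0.0325) and 3.65-fold on the second (1.87 ± 0.20, adjusted p = 0.0182) in the combined knockdown against luciferase. It was also higher than after H3.Y siRNA, by 1.95 ± 0.32 (adjusted p = 0.0289) and 1.65 ± 0.20 (0.0135).

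TIMP2, which with MMP14 takes part in the activation of pro-MMP2 at the cell surface, gave 8.62 and 8.58 log2 units in the combined knockdown, 7.58 and 7.45 after H3.Y siRNA, and 8.19 and 8.11 with luciferase siRNA. The 3 groups did not overlap, with luciferase between the knockdowns. TIMP2 was 2.12-fold higher in the combined knockdown than after H3.Y siRNA (log2 1.08 ± 0.13, limma adjusted p = 0.013). Against luciferase it differed by 0.45 ± 0.13 in the combined knockdown (adjusted p = 0.164) and by -0.63 ± 0.13 after H3.Y siRNA (adjusted p = 0.117). Fitted and adjusted over probe sets with 1 symbol only, TIMP2 passed after H3.Y siRNA (limma adjusted p = 0.0357).

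TIMP1, a broad MMP inhibitor, gave 11.82 and 11.61 log2 units in the combined knockdown, 12.19 and 11.70 after H3.Y siRNA, and 12.01 and 11.62 with luciferase siRNA, and all groups overlapped. Its differences were -0.10 ± 0.22 in the combined knockdown and 0.13 ± 0.22 after H3.Y siRNA against luciferase (limma adjusted p = 0.92 and 0.864). TIMP4 stayed between 4.22 and 4.33 on all 6 arrays, with differences of at most 0.07 in size. Over the TIMPs, 3 of 5 probe sets passed between the knockdowns, all higher in the combined knockdown (2.74% of all probe sets were). Against luciferase 2 of 5 rose in the combined knockdown (0.859% of all probe sets), and 0 of 5 passed after H3.Y siRNA (limma, 1 at an unadjusted p under 0.05), where 0.279% of all did.

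**Figure D2:**
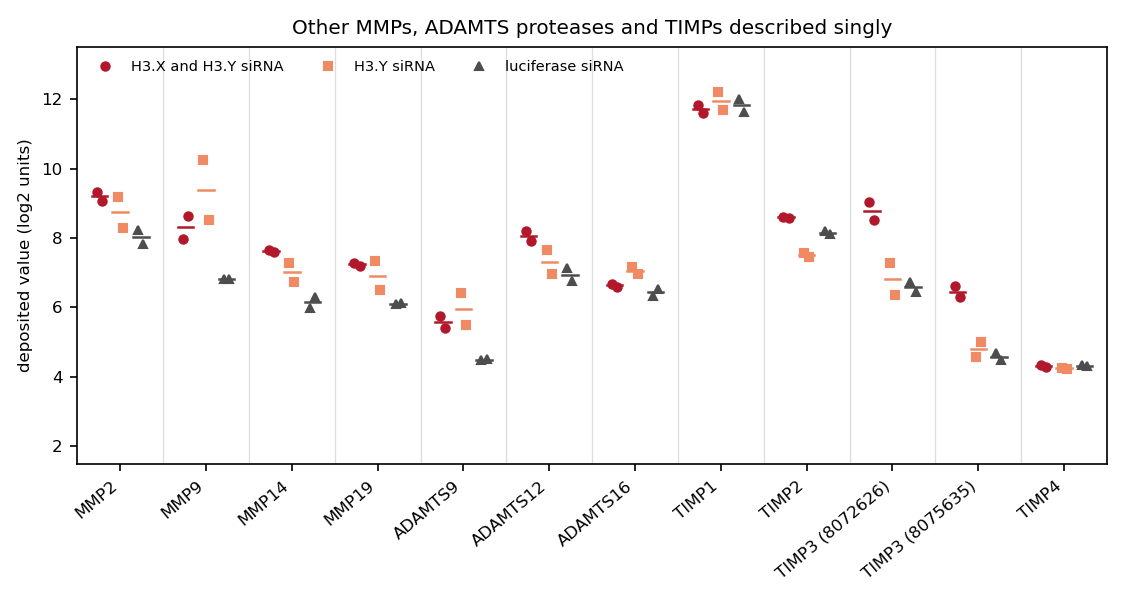
Deposited log2 values of the other MMP, ADAMTS and TIMP probe sets described singly. Points are single arrays, 2 per group, and bars are group means, and numbers in brackets tell apart the 2 probe sets of TIMP3. TIMP3 lies highest in the combined knockdown on both probe sets, and the MMP9 and ADAMTS9 arrays of both knockdowns lie above those of luciferase siRNA.

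Outside the cluster, MMP14 was the 1 MMP that passed. MMP14, the membrane-type collagenase that activates pro-MMP2, gave 7.65 and 7.59 log2 units in the combined knockdown, 7.29 and 6.73 after H3.Y siRNA, and 5.998 and 6.30 with luciferase siRNA. Every knockdown array lay above both luciferase arrays. It rose 2.78-fold in the combined knockdown (log2 1.47 ± 0.21, limma adjusted p = 0.0317), with 0.86 ± 0.21 after H3.Y siRNA (adjusted p = 0.164) and 0.61 ± 0.21 between the knockdowns (0.187).

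The gelatinases and MMP19 had the same order of luciferase against knockdown arrays without passing when adjusted over all probe sets. Adjusted over probe sets with 1 symbol only, MMP2 (limma adjusted p = 0.034) and MMP19 (0.0251) passed in the combined knockdown. With that adjustment MMP9 (0.0226) and MMP14 (0.0492) passed after H3.Y siRNA. MMP9, gelatinase B, gave 7.98 and 8.64 log2 units in the combined knockdown, 10.2 and 8.51 after H3.Y siRNA, and 6.81 and 6.81 with luciferase siRNA. Its H3.Y arrays were 1.73 log2 units apart, the widest gap between replicates among the members, beside a luciferase gap under 0.01. The differences from luciferase were 2.83-fold in the combined knockdown (limma adjusted p = 0.245) and 5.90-fold after H3.Y siRNA (0.12), with an SE of 0.53 log2 units. MMP2, gelatinase A, gave 9.32 and 9.07 in the combined knockdown, 9.17 and 8.30 after H3.Y siRNA, and 8.22 and 7.83 with luciferase siRNA, with differences from luciferase of 1.17 ± 0.30 in the combined knockdown (0.13) and 0.71 ± 0.30 after H3.Y siRNA (0.373). MMP19 gave 7.29 and 7.19 in the combined knockdown, 7.34 and 6.49 after H3.Y siRNA, and 6.09 and 6.12 with luciferase siRNA. Its differences were 1.14 ± 0.27 (0.107) and 0.81 ± 0.27 (0.255). In MMP14 and all 3 of these genes replicate 1 of H3.Y siRNA was higher than replicate 2. With the H3.Y group cut to 1 array, the difference of MMP9 from luciferase was log2 3.43 without replicate 2 and 1.70 without replicate 1. That of MMP19 was 1.24 and 0.39. Between the knockdowns MMP9 gave -1.92 and -0.20 in these fits. In a fit of only the 4 arrays compared, MMP19 passed in the combined knockdown against luciferase (limma adjusted p = 0.0312).

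Membrane-type MMPs other than MMP14 did not pass in any comparison. MMP15 differed by 0.49 ± 0.17 (limma adjusted p = 0.244) and MMP24 by 0.51 ± 0.17 (0.223) in the combined knockdown against luciferase, and in both the combined knockdown arrays lay above the other 4. MMP16 had 2 probe sets that did not move alike after H3.Y siRNA, at -0.60 ± 0.20 (0.267) and 0.09 ± 0.24 (0.911). MMP17 gave -0.31 ± 0.12 between the knockdowns (0.246), and MMP25 stayed within 0.13 in every comparison.

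With p-values adjusted over all probe sets, 0 of the 17 ADAMTS probe sets passed in each comparison (limma, 2 at an unadjusted p under 0.05 in each of the 3). Adjusted over probe sets with 1 symbol only, ADAMTS12 (0.0248) and ADAMTS9 (0.0448) passed in the combined knockdown and ADAMTS9 after H3.Y siRNA (0.0231). ADAMTS9, an aggrecan- and versican-cleaving protease, gave 5.75 and 5.40 log2 units in the combined knockdown, 6.42 and 5.51 after H3.Y siRNA, and 4.48 and 4.52 with luciferase siRNA. Both knockdowns lay above luciferase, by 1.08 ± 0.30 in the combined knockdown (limma adjusted p = 0.155) and 1.46 ± 0.30 after H3.Y siRNA (0.117). With the H3.Y group cut to 1 array, its difference after H3.Y siRNA was 1.92 without replicate 2 and 1.01 without replicate 1. In a fit of only the 4 arrays compared, ADAMTS9 passed in the combined knockdown against luciferase (limma adjusted p = 0.0481). ADAMTS12, which cleaves cartilage oligomeric matrix protein, gave 8.20 and 7.92 in the combined knockdown, 7.65 and 6.95 after H3.Y siRNA, and 7.13 and 6.75 with luciferase siRNA. The combined knockdown arrays lay above the other 4, at 1.12 ± 0.26 over luciferase (0.106). ADAMTS16 gave 6.68 and 6.59 in the combined knockdown, 7.15 and 6.96 after H3.Y siRNA, and 6.33 and 6.53 with luciferase siRNA, so that H3.Y siRNA was highest, at 0.62 ± 0.15 over luciferase (0.15).

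The procollagen N-propeptidases ADAMTS2, ADAMTS3 and ADAMTS14 differed from luciferase by -0.27 to 0.25 in the combined knockdown and by -0.09 to 0.02 after H3.Y siRNA. Among the aggrecanase-type members, ADAMTS1 gave 0.44 ± 0.19 in the combined knockdown (limma adjusted p = 0.355), and ADAMTS4, ADAMTS5, ADAMTS8 and ADAMTS20 lay between -0.01 and 0.31 there. ADAMTS13, which cleaves von Willebrand factor, stayed within 0.10 in every comparison. The 24 probe sets without values of their own per array here, 23 genes, held 0 calls by the rule that chose them, since every called member was given values. At an unadjusted p under 0.05 stood 1 with H3.Y siRNA, 2 in the combined knockdown and 3 between both (limma). The rule lowered these counts too, as members with an unadjusted p under 0.01 were also given values. Differences of the 24 ran from -0.60 to 0.55.

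**Figure D3:**
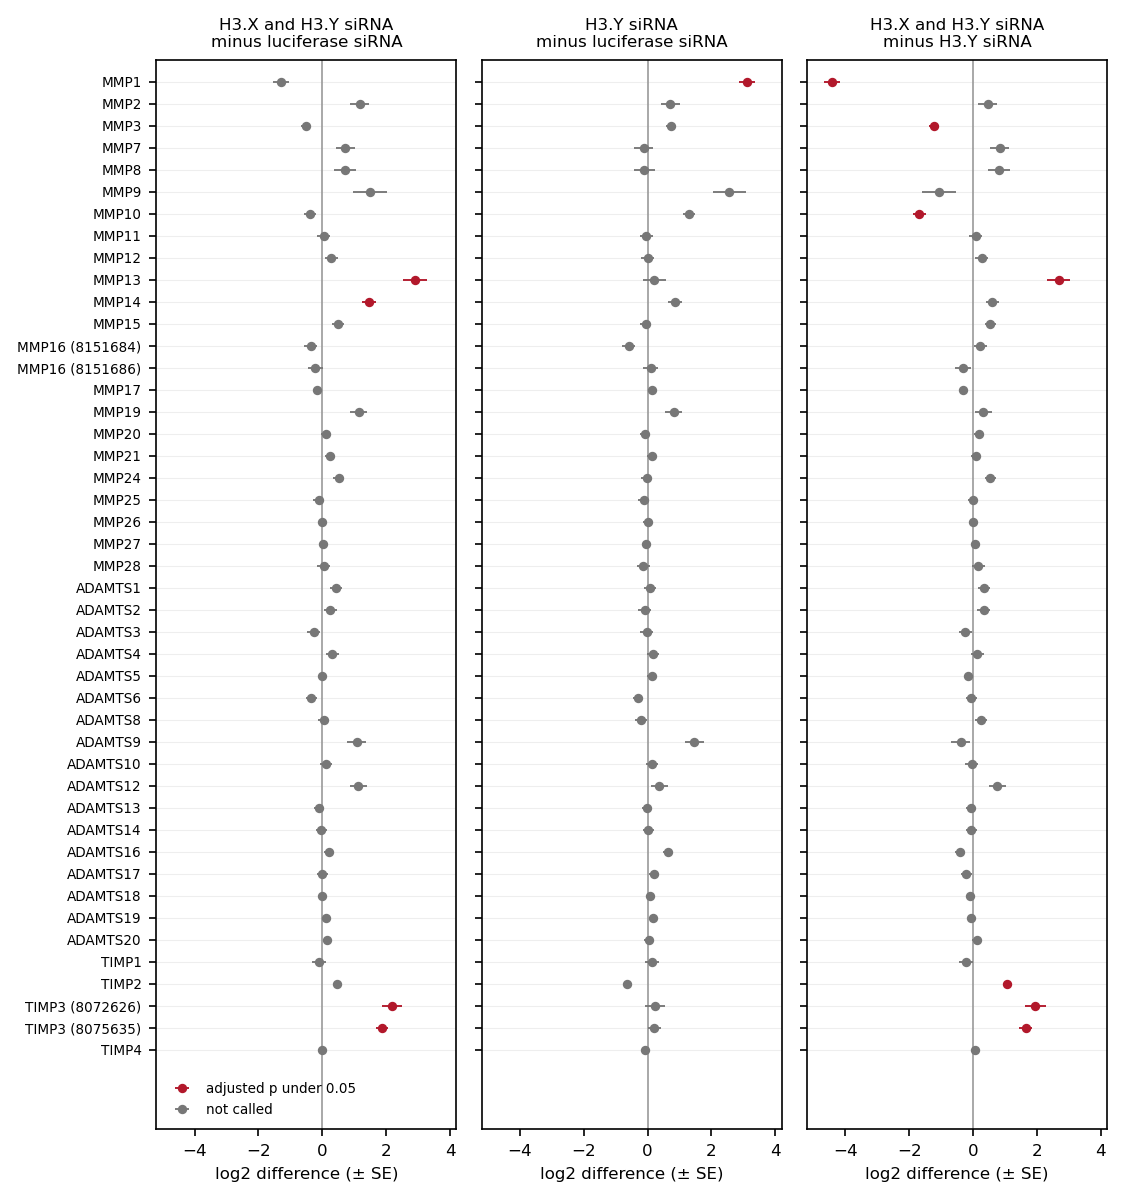
Log2 differences (points) with the SE of the limma fit (bars, n = 2 arrays per group) for all 45 probe sets in the 3 comparisons. Red points passed an adjusted p of 0.05 over all probe sets, 4 in the combined knockdown against luciferase siRNA, 1 for H3.Y siRNA against luciferase siRNA and 7 between the knockdowns.

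Over the whole family, 4 of 45 probe sets rose in the combined knockdown and 0 fell, at a background of 0.859% higher and 0.985% lower. After H3.Y siRNA 1 rose and 0 fell, at 0.0841% and 0.195%. Between the knockdowns 4 were higher and 3 lower in the combined knockdown, at 2.74% and 1.92%. At an unadjusted p under 0.05 stood 15 of 45 in the combined knockdown (15.3% of all probe sets), 10 after H3.Y siRNA (13.9%) and 15 between the knockdowns (19%). The medians over the 45 were log2 0.11 for the combined knockdown and 0.08 for H3.Y siRNA against luciferase, and 0.09 between the knockdowns. In the combined knockdown 19 of 45 had both arrays above both luciferase arrays and 7 had both below, where 23.4% and 24% of all probe sets did. After H3.Y siRNA these counts were 11 and 5, at 21.7% and 20% of all probe sets, and between the knockdowns 15 and 7, at 21.2% and 25.4%. Most of the family gave small differences, and the calls lay in the MMP10, MMP1, MMP3 and MMP13 genes, MMP14, TIMP2 and TIMP3.

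Of these calls, 1 survived the loss of every array in turn, namely MMP1 between the knockdowns (limma adjusted p up to 0.0469). All 7 between the knockdowns except MMP1 were lost without either combined knockdown array, at adjusted p from 0.0604 for MMP13 to 0.178 for TIMP3. MMP10 (0.0551) and MMP3 (0.0601) each lost their call without replicate 1 of H3.Y siRNA, as did the first TIMP3 probe set without either luciferase array (0.0697). In the combined knockdown against luciferase all 4 calls were lost without any 1 of the 4 arrays compared, at adjusted p from 0.0864 to 0.239. MMP1 after H3.Y siRNA kept its call only where H3.Y replicate 2 was left out (log2 3.44, adjusted p = 0.0179), and gave adjusted p of 0.1 without H3.Y replicate 1, 0.224 and 0.267 without a luciferase array and 0.095 without either combined knockdown array. No direction of a called member changed in any of these fits, and log2 differences of MMP1 stayed between 2.77 and 3.44 after H3.Y siRNA and between -4.74 and -4.07 between the knockdowns.

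Genes that activate MMPs or inhibit other proteases of the same cascades were taken from a list of 23, of which 20 were measured. In the combined knockdown 3 rose and 0 fell against luciferase, after H3.Y siRNA 0 rose and 1 fell, and between the knockdowns 4 were higher and 1 lower, at the backgrounds given above. The urokinase PLAU, which makes plasmin, an activator of pro-MMPs, gave 8.48 and 8.75 log2 units in the combined knockdown, 6.75 and 6.58 after H3.Y siRNA, and 8.34 and 8.05 with luciferase siRNA. It fell by 1.53 ± 0.17 on the log2 scale after H3.Y siRNA (limma adjusted p = 0.0377), where MMP1 rose, and was higher by 1.94 ± 0.17 in the combined knockdown than after H3.Y siRNA (0.00672).

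PLAT, the tissue plasminogen activator, gave 9.48 and 9.41 log2 units in the combined knockdown, 7.70 and 7.91 after H3.Y siRNA, and 8.53 and 8.54 with luciferase siRNA. It rose by 0.91 ± 0.14 in the combined knockdown against luciferase (limma adjusted p = 0.0343), and differed by -0.73 ± 0.14 after H3.Y siRNA (0.1). Between the knockdowns PLAT was higher by 1.64 ± 0.14 in the combined knockdown (0.00578). The serpin SERPINE2, an inhibitor of plasminogen activators and thrombin, rose by 1.46 ± 0.175 in the combined knockdown (0.0227), and the general protease trap A2M by 0.86 ± 0.145 (0.0463). SERPINE2 and A2M were also higher there than after H3.Y siRNA, by 1.14 ± 0.175 (0.0244) and 1.06 ± 0.145 (0.018). TFPI2, a Kunitz inhibitor found in the matrix, gave 7.68 and 7.23 in the combined knockdown, 10.8 and 9.70 after H3.Y siRNA, and 8.84 and 8.93 with luciferase siRNA. Its groups did not overlap, in the order of MMP1, and it was lower by log2 -2.81 ± 0.36 in the combined knockdown than after H3.Y siRNA (0.0157), with neither difference from luciferase past the threshold (0.124 and 0.175).

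**Figure D4:**
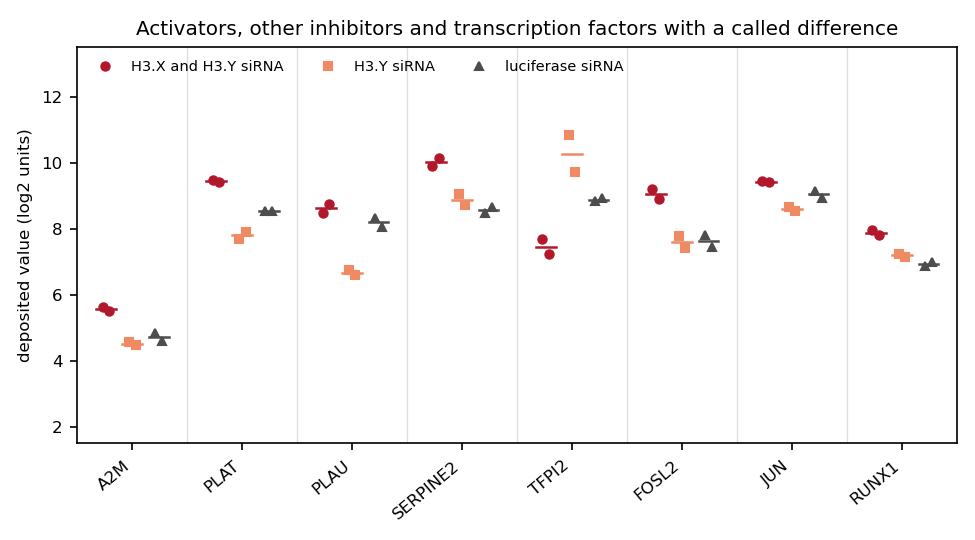
Deposited log2 values of the 5 activators and other protease inhibitors (left) and the 3 transcription factors (right) that passed in at least 1 comparison. Points are single arrays, 2 per group, and bars are group means. TFPI2 is lowest in the combined knockdown and highest after H3.Y siRNA, and PLAU is lowest after H3.Y siRNA.

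Of 31 transcription factors known from MMP promoters, all measured, 2 rose in the combined knockdown against luciferase, 0 passed after H3.Y siRNA (limma, 9 at an unadjusted p under 0.05), and 3 were higher in the combined knockdown than after H3.Y siRNA. Over all probe sets these shares were 0.859%, 0.279% and 2.74%. In the combined knockdown 19 of the 31 had negative differences from luciferase, with a median of log2 -0.125. FOSL2, a FOS family subunit of AP-1, gave 9.20 and 8.89 log2 units in the combined knockdown, 7.79 and 7.41 after H3.Y siRNA, and 7.81 and 7.46 with luciferase siRNA. It rose by 1.41 ± 0.21 in the combined knockdown (limma adjusted p = 0.0328), and its H3.Y and luciferase arrays overlapped. RUNX1 rose by 0.95 ± 0.14 (0.0309), and the AP-1 subunit JUN was higher by 0.82 ± 0.14 in the combined knockdown than after H3.Y siRNA (0.0316). RUNX2, the osteoblast factor, gave 0.48 ± 0.19 in the combined knockdown (0.304), and FOSL1 -0.17 ± 0.19 (0.804). The AP-1 subunits FOS and FOSB had negative differences from luciferase in both knockdowns without passing. FOS gave -0.72 ± 0.56 in the combined knockdown (0.676) and -1.87 ± 0.56 after H3.Y siRNA (0.216). FOSB gave -0.85 ± 0.35 in the combined knockdown (0.324) and -0.94 ± 0.35 after H3.Y siRNA (0.306). Among 21 listed ADAM, ADAMTS-like and BMP1-type relatives, 20 measured on 22 probe sets, 0 passed against luciferase in either knockdown (limma). At an unadjusted p under 0.05 stood 8 in the combined knockdown (15.3% of all probe sets) and 5 after H3.Y siRNA (13.9%). Between the knockdowns ADAM28 (1.18 ± 0.20, limma adjusted p = 0.0289) and ADAMTSL3 (0.97 ± 0.18, 0.0378) were higher in the combined knockdown. ADAM23 (-0.98 ± 0.14, 0.0213) was lower. Over all probe sets 2.74% were higher and 1.92% lower.

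Markers of the line and of other cells were read beside these values. Of 10 osteoblast and mesenchymal markers, VIM lay between 10.69 and 10.95 log2 units, COL1A1 between 8.33 and 10.73 and RUNX2 between 5.05 and 5.89 over the arrays. In the combined knockdown 8 of the 10 had positive differences from luciferase, as did 50.2% of all probe sets. Of the 10, 1 passed, COL1A1 (1.58 ± 0.17, limma adjusted p = 0.0191), where 0.859% of all probe sets rose. After H3.Y siRNA 7 of 10 were positive (53.4% of all probe sets) and 0 passed (limma, 2 at an unadjusted p under 0.05, beside 13.9% of all). COL1A1 stood there at -0.52 ± 0.17 and SPP1, osteopontin, at 1.74 ± 0.53. Between the knockdowns 5 were positive (45.6% of all probe sets) and 5 negative. COL1A1, CDH2 and SPARC passed between the knockdowns, all higher in the combined knockdown, as 2.74% of all probe sets were. Their part in the protease and inhibitor results was not tested. Of 12 macrophage and neutrophil markers, cells known to make MMP8, MMP9 and MMP12, 0 passed against luciferase (limma, 1 at an unadjusted p under 0.05 in each knockdown), and their mean level ran from 4.33 to 4.49 in the combined knockdown, 4.50 to 4.55 after H3.Y siRNA and 4.34 to 4.48 with luciferase siRNA. PTPRC, the defining marker of white blood cells, lay between 1.89 and 2.29 on all arrays. CD68, a lysosomal protein that other cells also make, was lower in the combined knockdown than after H3.Y siRNA (log2 -1.48 ± 0.25, limma adjusted p = 0.0314). It was the 1 of the 12 that passed there, where 1.92% of all probe sets were lower.

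Among epithelial markers, EPCAM, a surface adhesion protein, rose in the combined knockdown on both of its probe sets (log2 2.25 ± 0.18 and 2.73 ± 0.31, limma adjusted p = 0.0129 and 0.0207), and the other 8 probe sets did not pass against luciferase. All 10 probe sets of the 8 genes had positive differences there, as did 50.2% of all probe sets, and they ran down to 0.003 for KRT5. After H3.Y siRNA 9 of the 10 were negative and 0 passed (limma, 3 at an unadjusted p under 0.05). Between the knockdowns 4 passed, all higher in the combined knockdown (2.74% of all probe sets were). These were EPCAM on both probe sets (2.46 ± 0.18 and 3.95 ± 0.31, limma adjusted p = 0.00507 and 0.00546), CLDN4 (1.51 ± 0.17, 0.0116) and KRT14 (0.86 ± 0.15, 0.0301). The mean level of the 10 ran from 7.42 to 7.47 in the combined knockdown, 6.11 to 6.40 after H3.Y siRNA and 6.60 to 6.75 with luciferase siRNA. The part of these markers in the MMP13, MMP14 and TIMP3 results was not tested. Endothelial markers, at 3.65 to 3.71 in the combined knockdown, 3.75 to 3.77 after H3.Y siRNA and 3.72 to 3.73 with luciferase siRNA, had 0 calls (limma, 1 at an unadjusted p under 0.05 in the combined knockdown, 0 after H3.Y siRNA and 1 between them).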

How the data were processed

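Total RNA was biotin-labelled and hybridised to 6 arrays. The authors deposited a log2 value for each probe set. The submitters' processing notes name the package oligo. Its version and the correction and summary steps are not stated in the labels. That the scale is log2 was read from the range of values, and array medians between 5.10 and 5.14 show a common scale, which hides any change shared by all transcripts. Of the value columns, 0 were left unused. Arrays of a group correlated with r from 0.986 to 0.992, and arrays of different groups from 0.978 to 0.987.

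Probe sets were named from the platform's annotation, and symbols updated by Entrez ID in the RefSeq table of GRCh38.p14, which held all 45 members. A probe set of 2 or more symbols named no gene (1754 of 33297), and 12083 were unnamed here. Members, gene lists and tests were chosen with earlier results of these data known. Members were given values per array where they lay in the cluster, were TIMPs, passed in a comparison, had an unadjusted p under 0.01, or were among the 5 with the highest mean. From other lists, up to 5 members that passed are named. The remaining members named with a difference, and BIRC2, TMEM123, DCUN1D5, RUNX2, FOSL1, FOS, FOSB, SPP1, KRT5, VIM and PTPRC, were named after their values were seen.

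All 33297 probe sets were fitted with limma 3.58.1 in R 4.3.3 (lmFit, eBayes, 1 mean per group, all 6 arrays, 3 residual and 3.43 prior degrees of freedom), two-sided, with Benjamini-Hochberg adjustment within each comparison. A probe set was called, and said to have passed, at an adjusted p under 0.05. The fit was tested on simulated data with known changes added in the combined knockdown. Against luciferase it called 28.2% of changes of log2 1 and 79.6% of changes of log2 2, so that most changes of log2 1 were missed. The number of arrays limits the precision. Alternatives were the 4 arrays compared alone, a replicate block, quantile normalization, median centring, a filter on low values, an intensity trend, a robust prior, only probe sets with 1 symbol, and each array left out. The siRNA target genes were not analysed here.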

Additional observations from a re-analysis of the deposited data

Results flagged for a closer look

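The 2 knockdowns were each set against luciferase siRNA, and in 6 genes of the family these effects differed by the test of the difference itself (limma, combined knockdown minus H3.Y siRNA, n = 2 arrays per group). MMP1 differed by log2 -4.40, MMP10 by -1.68 and MMP3 by -1.22, lower in the combined knockdown in 2 of 2 arrays. MMP13 differed by 2.68, TIMP2 by 1.08 and TIMP3 by 1.95 and 1.65 on its 2 probe sets, higher in the combined knockdown in 2 of 2 arrays. In MMP1, MMP3, MMP10 and TIMP2 the luciferase arrays lay between those of the knockdowns.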

How the results depend on the processing

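Over the 21 probe sets described singly, 867 values were recomputed under the alternatives, of which 798 kept their side of the threshold, 39 lost a call and 30 gained one. The sign changed in 22, in 10 genes, with main differences of at most 0.39 in size and 0 of them called in either fit. Family counts stayed within 1.5 times of the main ones under quantile normalization, median centring, an intensity trend, a robust prior and the replicate block. They moved under a filter on low values after H3.Y siRNA (2, MMP10 added), in fits of only the 4 arrays compared (7 in the combined knockdown against luciferase, 0 after H3.Y siRNA) and over probe sets with 1 symbol only (9 in the combined knockdown, 7 after H3.Y siRNA), where fewer probe sets are adjusted for. With 1 array left out, counts ran from 0 to 7 in the combined knockdown, 0 to 4 after H3.Y siRNA and 1 to 8 between the knockdowns, where a lone array is assumed to vary like the other groups. Over all probe sets, 614 were called in the combined knockdown, 93 after H3.Y siRNA and 1554 between the knockdowns. The low-value filter gave 1237, 413 and 2436, probe sets with 1 symbol 1549, 829 and 2715, and the intensity trend 960 and 205 in the first and second of these. The 4 arrays compared gave 0 calls after H3.Y siRNA (limma, 3709 at an unadjusted p under 0.05) and 448 between the knockdowns. With 1 array left out these ran from 0 to 644, 0 to 629 and 12 to 1641, with at least 2852 at an unadjusted p under 0.05.

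Same-numbered arrays deviated together with r of 0.122 (combined knockdown and H3.Y), 0.28 (combined knockdown and luciferase) and 0.22 (H3.Y and luciferase), but only 2 numbers were shared and the labels tie them to nothing else. With the replicate block 750, 68 and 1778 probe sets were called, and 6, 1 and 8 of the family, with ADAMTS12 (adjusted p = 0.0373) and MMP2 (0.0469) added in the combined knockdown and MMP7 (0.0409) between the knockdowns. The call of MMP1 against luciferase in the combined knockdown depended on the setting, with an adjusted p of 0.0677 in the main analysis, 0.0321 under the filter, 0.0121 over probe sets with 1 symbol, 0.0459 with an intensity trend and 0.0429 over the 4 arrays compared. The signal of MMP8, MMP12, MMP20 and MMP27 near the floor limits what can be seen of them.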
